A study of Homo sapiens with 9 samples.

Results

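Potassium and calcium channel genes were described here across a parental colorectal cancer cell line and its chemoresistant derivatives. The genes were those whose symbol begins with KCN or CACN and that reached at least 1 CPM (CPM, the count of a gene scaled to a common library size) in 3 or more of the 9 libraries. This left 45 genes, 30 KCN and 15 CACN, of the 123 such symbols (97 KCN and 26 CACN) among the 19976 genes of the mRNA table, and 26 of the 123 had 0 counts in every library. HCT8 is an established human colorectal adenocarcinoma line, chemosensitive and grown without drug. HCT8/5-Fu cells were derived from it by rising concentrations of 5-Fu, a pyrimidine analog, and were kept in 5-Fu, whereas HCT8/DDP cells were derived likewise with cisplatin and were kept in cisplatin. Each resistant phenotype was represented by 1 line, and each line by 3 libraries, numbered as replicates 1 to 3. Whether replicates came from different cultures is not stated in the sources used here, and the p-values then reflect no more than the spread among these libraries. Derivation and the drug present at harvest cannot be told apart, since no resistant cells without drug were sequenced among these 9 libraries.

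Voltage-gated calcium channels consist of a pore-forming CACNA1 subunit with a CACNA2D, a CACNB and in some channels a CACNG subunit, and let calcium into the cell on depolarization. Potassium channels let potassium leave or, for the inward rectifiers, enter the cell, and set the membrane potential. In colonic epithelium, potassium channels of the basolateral membrane recycle potassium and maintain the electrical force that drives chloride secretion. The KCN genes fall into voltage-gated pores, accessory subunits, inward rectifiers (KCNJ), leak channels (KCNK), and calcium- or sodium-activated channels with their subunits (KCNM, KCNN, KCNT, KCNU).

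The choice of genes rested on CPM levels, so those levels are given as description. Just inside the limit, the third-highest CPM was 1.06 for KCNS3, 1.15 for CACNA1F and 1.46 for KCNH3. Just outside it stood KCNMA1 with 0.806, KCNH8 with 0.756 and CACNA1B with 0.689. KCNMA1 encodes the pore of the large-conductance calcium-activated (BK) channel, whose accessory subunits KCNMB3 and KCNMB4 were inside. Of the 45 genes, 33 reached 1 CPM in at least 1 library of every line. CACNA1D, CACNA2D2, KCND3, KCNIP3, KCNMB3 and KCNS3 passed through HCT8 libraries alone, and KCNJ4 and KCNH3 through libraries of the resistant lines alone. Counts of changed genes therefore include 8 genes that passed only through the lines where they were high. A mean of at least 1 CPM was reached by 40 of the 45 genes in HCT8, 31 in HCT8/5-Fu and 38 in HCT8/DDP.

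The libraries held 19753035 to 28535882 counts. Over the 12697 genes with at least 1 CPM in 3 libraries, log2(CPM + 1) correlated across genes at 0.973 to 0.997 within lines, 0.898 to 0.926 between HCT8 and either resistant line, and 0.970 to 0.990 between the resistant lines. HCT8/5-Fu replicate 1 stood apart in its line, with the highest CPM of the line for 28 of the 45 genes, and calls that turn on it are named below. HCT8 replicate 1 also stood apart, correlating at 0.986 and 0.988 with replicates 2 and 3, against 0.996 between those. HCT8/DDP replicate 3 had the lowest CPM of its line for 28 of the 45 genes. Of 12 markers of colorectal epithelium, 11 had a mean of at least 1 CPM in HCT8 and 10 in each resistant line, and their summed level was 5229 to 6342 CPM in HCT8, 12330 to 14879 in HCT8/5-Fu and 8625 to 9847 in HCT8/DDP. The sum rested largely on KRT8 (means of 2468, 7287 and 4524 CPM in the same order) and KRT18 (1536, 4475 and 2931 CPM). EPCAM stood at 268 ± 15.5, 366 ± 15.3 and 338 ± 15.9 CPM (SD, n = 3). EPCAM, KRT8, KRT18, KRT20, CDX1 and LGALS4 were higher in both resistant lines (edgeR, adjusted p under 0.05). CDH1, CDH17, VIL1 and CDX2 were called in neither. GRHL2, an epithelial transcription factor, had a mean of 100.2 CPM in HCT8, 0.0117 in HCT8/5-Fu and 0 in HCT8/DDP. The 7 mesenchymal markers summed to 9.47 to 12.9, 14.9 to 41.2 and 73.6 to 82.3 CPM in the same order. The rise in this sum rested largely on VIM, with means of 0.944, 23.7 ± 14.3 and 64.2 ± 4.84 CPM (SD, n = 3). COL1A1, the highest of them in HCT8, was called in neither comparison with HCT8. Its log2 fold changes were -0.79 in HCT8/5-Fu and 0.30 in HCT8/DDP (edgeR, adjusted p = 0.0727 and 0.253). PDGFRB was called higher in HCT8/DDP alone (0.61, edgeR adjusted p = 0.0359). LUM was at 0 in HCT8 and HCT8/DDP. Markers of blood cells summed to at most 4.66 CPM, with PTPRC and CD3E at 0 in all libraries, and those of neurons to at most 0.640 CPM. The part of these marker shifts in the channel results was not tested. In such bulk samples, fewer cells expressing a gene and less RNA per cell cannot be told apart.

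**Figure D1:**
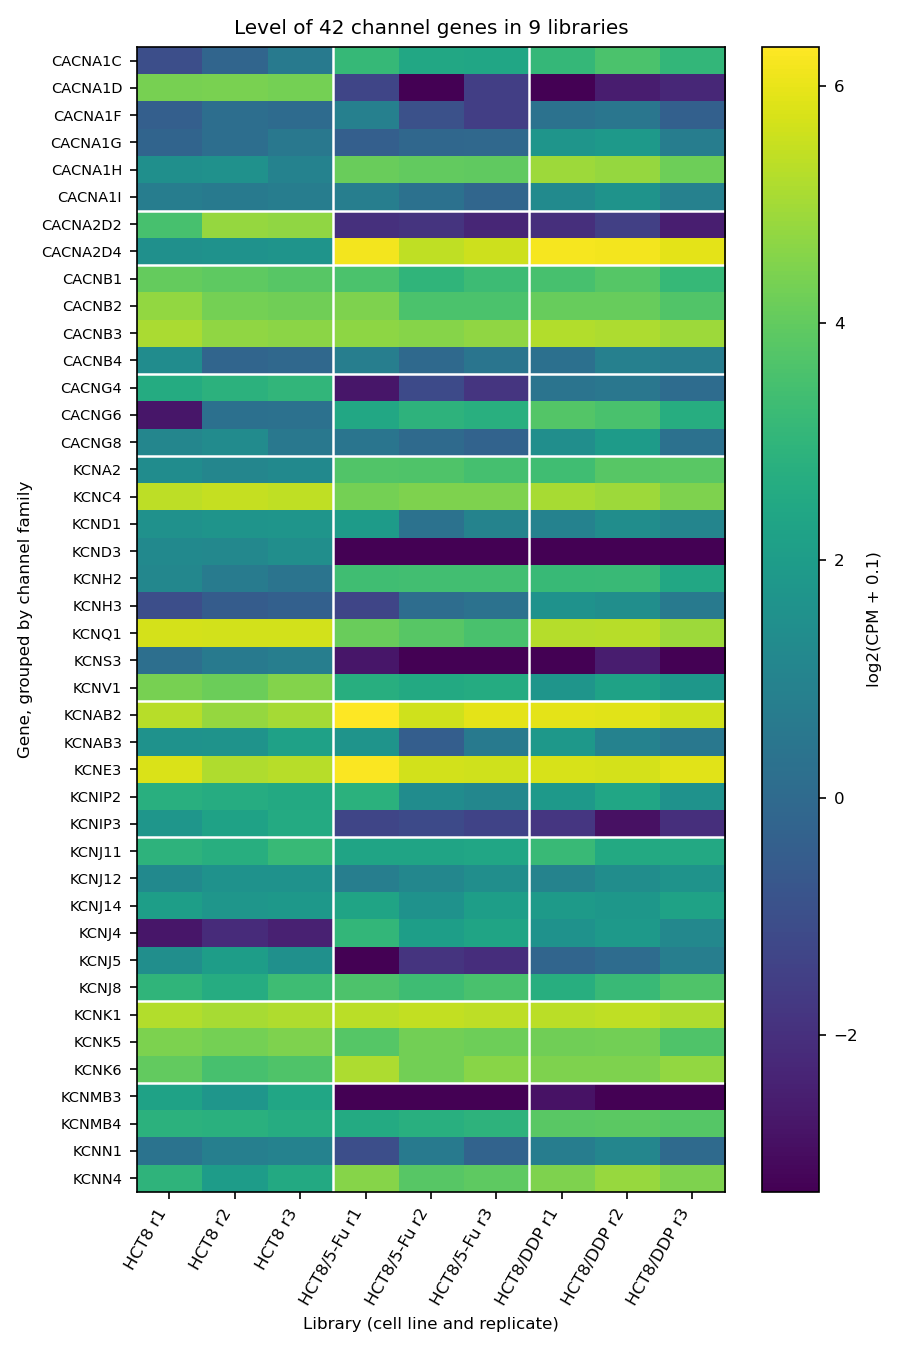
Level of 42 of the 45 channel genes in the 9 libraries, as log2(CPM + 0.1) by colour, with rows grouped by channel family and columns by cell line and replicate. KCND3 and KCNMB3 lie at the dark end in the resistant lines, KCNJ4 in HCT8, and CACNA2D4 turns from 2.73 to 3.11 CPM in HCT8 to at least 42.2 CPM in all 6 resistant libraries.

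Compared with HCT8, 25 of the 45 channel genes were called in HCT8/5-Fu (edgeR, adjusted p under 0.05 over all genes tested), or 55.6% against 38.5% of the 13228 genes tested. Of these, 11 were higher and 14 lower, against 20.2% higher and 18.2% lower over all genes. With a change of at least 2-fold, 10 were higher and 11 lower, against 7.47% and 8.83% of all genes. In HCT8/DDP, 29 of the 45 were called, or 64.4% against 52.6% of 13373 genes. Here 16 were higher and 13 lower, against 27.1% and 25.5% over all genes. At least 2-fold changes numbered 11 higher and 10 lower, against 8.79% and 7.37% of all genes. The 45 genes had a median log2 fold change of -0.29 for HCT8/5-Fu and of 0.24 for HCT8/DDP, beside -0.00 and -0.01 over all genes. Their median size was 0.92 and 0.89, beside 0.40 and 0.38. These counts and medians include the 6 genes that passed through HCT8 alone, all called lower in both comparisons. They also include KCNJ4, called higher in both, and KCNH3, called higher in HCT8/DDP, which passed through the resistant lines alone. How far the excess over all genes rests on how the genes were chosen was not tested, and its size without these genes is not given. Both comparisons share the 3 HCT8 libraries, so each gene's values are set side by side below and are not counted jointly. By ion, 4 CACN genes were higher and 4 lower in HCT8/5-Fu, with 7 not called, and 6 were higher and 3 lower in HCT8/DDP. Of the 30 KCN genes, 7 were higher and 10 lower in HCT8/5-Fu, and 10 were higher and 10 lower in HCT8/DDP.

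Promoter sequences are shown for 4 genes of large change, a pair that fell (CACNA1D and KCNIP3) and a pair that rose (CACNA1C and KCNJ4). They were picked by sequence: the windows of CACNA1D, KCNIP3 and CACNA1C are dense in CG dinucleotides and that of KCNJ4 is not. Windows from RefSeq (GRCh38.p14) were matched for 30 of the 45 genes, 54 in all, each from 250 bases before to 50 bases after a start, some genes having several. The letters run 5′ to 3′ on the gene's strand, and capitals mark CG dinucleotides. The windows are chr3:53494361-53494660 on the + strand (CACNA1D), chr2:95346408-95346707 on the + strand (KCNIP3), chr12:2052737-2053036 on the + strand (CACNA1C) and chr22:38443979-38444278 on the - strand (KCNJ4).
CACNA1D: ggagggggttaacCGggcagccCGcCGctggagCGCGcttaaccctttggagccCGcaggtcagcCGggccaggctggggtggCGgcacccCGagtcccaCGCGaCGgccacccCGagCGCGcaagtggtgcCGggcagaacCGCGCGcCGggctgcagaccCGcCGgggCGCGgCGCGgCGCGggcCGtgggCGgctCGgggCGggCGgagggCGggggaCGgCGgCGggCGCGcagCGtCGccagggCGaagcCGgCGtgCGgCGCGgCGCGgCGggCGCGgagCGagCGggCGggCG
KCNIP3: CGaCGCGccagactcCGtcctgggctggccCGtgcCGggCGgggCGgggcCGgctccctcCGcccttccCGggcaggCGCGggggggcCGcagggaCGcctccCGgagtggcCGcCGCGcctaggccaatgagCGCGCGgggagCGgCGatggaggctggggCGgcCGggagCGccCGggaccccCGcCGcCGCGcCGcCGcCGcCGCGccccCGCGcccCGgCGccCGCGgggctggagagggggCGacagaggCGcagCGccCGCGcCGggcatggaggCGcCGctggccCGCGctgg
CACNA1C: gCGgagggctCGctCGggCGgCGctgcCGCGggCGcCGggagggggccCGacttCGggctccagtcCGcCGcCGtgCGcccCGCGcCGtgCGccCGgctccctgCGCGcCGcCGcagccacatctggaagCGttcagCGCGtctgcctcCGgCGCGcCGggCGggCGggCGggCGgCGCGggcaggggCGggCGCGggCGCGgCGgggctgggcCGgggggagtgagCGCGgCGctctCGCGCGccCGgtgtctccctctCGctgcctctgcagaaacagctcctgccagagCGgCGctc
KCNJ4: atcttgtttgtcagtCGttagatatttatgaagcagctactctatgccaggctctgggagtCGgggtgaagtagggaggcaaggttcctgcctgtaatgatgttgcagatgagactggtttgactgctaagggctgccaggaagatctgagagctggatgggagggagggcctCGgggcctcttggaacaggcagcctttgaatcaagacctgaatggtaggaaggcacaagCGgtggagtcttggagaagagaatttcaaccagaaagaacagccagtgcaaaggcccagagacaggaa
These windows hold 56, 53, 54 and 4 CG dinucleotides. Over the 54 windows the median was 22.5 and the range 2 to 56, beside a median of 14 over the 35116 windows of the table used here. GGGCGG, the GC box, counted on both strands and including overlaps, occurred in 33 of the 54 windows (61.1%) and in 45% of all windows, and TATAAA on both strands in 4 (7.41%) and in 11.5%. CACNA1D and CACNA1C, which moved in opposite directions, both have CG-dense windows. Other genes that fell varied: the KCND3 windows hold 53 and 24 CG dinucleotides, those of KCNS3 19 and 48, and that of KCNJ5 25. The CACNA2D2 windows hold 39 and 5, and those of KCNMB3 2, 11 and 3. No methylation or binding data were among the files used here, so these counts are a description of sequence alone.

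Calcium channel pores moved in both directions. CACNA1D, an L-type pore, had 20.5, 20.7 and 19.7 CPM in HCT8 replicates 1 to 3, 0.302, 0 and 0.248 in HCT8/5-Fu, and HCT8/DDP had 0, 0.0716 and 0.112. Replicates are given in this order throughout, and of paired fold changes the first is that of HCT8/5-Fu and the second that of HCT8/DDP, both against HCT8. Its HCT8 libraries lay within a narrow band and no resistant library came near it, and the log2 fold changes were -6.74 (SE 0.48, adjusted p = 1.97e-05) and -8.15 (SE 0.34, adjusted p = 5.49e-10). With so few counts in the resistant lines, these sizes moved by 1.54 times without HCT8/5-Fu replicate 2 and by 1.61 times without HCT8/DDP replicate 3, to -6.11 and -8.83. CACNA1C, the L-type pore best known from heart and smooth muscle, had 0.405, 0.775 and 1.49 CPM in HCT8, 8.62, 5.47 and 5.07 in HCT8/5-Fu, and HCT8/DDP had 8.40, 11.9 and 8.37. Every resistant library was above every HCT8 library, with log2 fold changes of 2.89 (SE 0.44, adjusted p = 0.00117) and 3.50 (SE 0.35, adjusted p = 2.64e-06). Both were larger without HCT8 replicate 3, the highest HCT8 library, at 3.49 and 4.10.

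T-type pores open at small depolarizations. Of the CACNA1 genes, CACNA1H, a T-type pore, had the highest FPKM (the count scaled by gene length and library size) averaged over the 9 libraries. It had 2.68, 2.84 and 1.83 CPM in HCT8, 17.1, 16.0 and 15.5 in HCT8/5-Fu, and HCT8/DDP had 29.6, 27.9 and 18.4. The lines did not overlap, and the log2 fold changes were 2.83 (SE 0.21, adjusted p = 2.52e-05) and 3.49 (SE 0.22, adjusted p = 2.51e-08). The direct difference of CACNA1H between the resistant lines, 0.64, was not called in the main fit (adjusted p = 0.0974). It was called by DESeq2 (adjusted p = 0.0237) and by edgeR without HCT8/5-Fu replicate 1 (adjusted p = 0.0122). CACNA1G, another T-type pore, had 0.759, 1.03 and 1.37 CPM in HCT8, 0.655, 0.841 and 0.851 in HCT8/5-Fu, and HCT8/DDP had 3.18, 3.55 and 1.61. It rose in HCT8/DDP (log2 fold change 1.50, SE 0.38, adjusted p = 0.00522), with all 3 libraries above HCT8, and was not called in HCT8/5-Fu (-0.31, adjusted p = 0.572). The direct difference between the resistant lines, 1.80, was not called in the main fit (adjusted p = 0.0564). Some alternatives called it, among them DESeq2 (adjusted p = 0.00200) and the fit without HCT8/5-Fu replicate 1 (adjusted p = 0.00636). CACNA1I, the remaining T-type pore, and CACNA1F, an L-type pore known from retina, were called in neither comparison and lay between 0.248 and 3.01 CPM. CACNA1I was called higher in HCT8/DDP without HCT8/DDP replicate 3 (0.90, adjusted p = 0.0381).

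The CACNA2D genes encode the extracellular alpha2delta subunits that raise the surface density of calcium channels, and the CACNA2D genes that passed the limit moved in opposite directions. CACNA2D4 had 2.73, 2.89 and 3.11 CPM in HCT8, 71.1, 42.2 and 47.5 in HCT8/5-Fu, and HCT8/DDP had 73.3, 71.4 and 60.4. The gap between HCT8 and the resistant libraries was many times the spread within a line, with log2 fold changes of 4.28 (SE 0.20, adjusted p = 2.62e-06) and 4.66 (SE 0.14, adjusted p = 3.53e-11). CACNA2D2 went the other way, with 11.5, 27.4 and 26.02 CPM in HCT8 against 0.151, 0.175 and 0.106 in HCT8/5-Fu, and HCT8/DDP had 0.148, 0.251 and 0.0747. HCT8 replicate 1 was the lowest of its line but still far above all resistant libraries, and the log2 fold changes were -7.09 (SE 0.50, adjusted p = 1.98e-05) and -6.94 (SE 0.49, adjusted p = 6.02e-07). On the length-scaled level, CACNA2D2 was the sixth-highest channel gene of HCT8 at 3.42 ± 1.40 FPKM, and CACNA2D4 the third-highest of both resistant lines at 7.18 ± 2.07 and 9.16 ± 0.931 FPKM (SD, n = 3).

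The cytoplasmic CACNB subunits, which carry the pore to the membrane, had log2 fold changes between -0.54 and 0.38 in both comparisons. CACNB3, the highest of them by FPKM, stood at 34.0, 26.1 and 25.2 CPM in HCT8, 25.8, 23.97 and 26.2 in HCT8/5-Fu, and HCT8/DDP had 37.5, 34.8 and 29.7. Its ranges overlapped between HCT8 and both resistant lines. It was called in HCT8/DDP (log2 fold change 0.38, SE 0.13, adjusted p = 0.0213), but not when replicate 2 or 3 of HCT8, or replicate 1 or 2 of HCT8/DDP, was left out (adjusted p = 0.0685 to 0.101), nor with library totals (adjusted p = 0.133) or upper-quartile factors (adjusted p = 0.0700). CACNB1 had 16.4, 15.1 and 14.0 CPM in HCT8 and 11.8, 7.78 and 9.65 in HCT8/5-Fu, a log2 fold change of -0.54 (adjusted p = 0.0330, SE 0.17). That call was lost in 5 of the 6 fits without 1 library, all but the one without HCT8/5-Fu replicate 1. CACNB2 was not called in HCT8/5-Fu (-0.42, adjusted p = 0.171) or HCT8/DDP (-0.36, adjusted p = 0.0597). Without HCT8/5-Fu replicate 1 it was called lower in HCT8/5-Fu (-0.70, adjusted p = 0.00570), and in HCT8/DDP it was called lower with library totals, with upper-quartile factors or without HCT8 replicate 3 (adjusted p = 0.0257 to 0.0397). CACNB4 was called in neither comparison.

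CACNG genes encode transmembrane gamma subunits, of which CACNG4 and CACNG8 also bind AMPA-type glutamate receptors in brain. CACNG6 had 0.0506, 1.08 and 1.11 CPM in HCT8, 5.34, 7.43 and 6.77 in HCT8/5-Fu, and HCT8/DDP had 13.3, 11.7 and 6.39. No resistant library fell as low as the highest HCT8 library, and the log2 fold changes were 3.19 (SE 0.62, adjusted p = 0.00411) and 3.86 (SE 0.55, adjusted p = 2.80e-04). CACNG4 fell from 6.08, 7.15 and 8.02 CPM in HCT8 to 0.0504, 0.350 and 0.177 in HCT8/5-Fu, and HCT8/DDP had 1.22, 1.33 and 0.971. All 3 lines were separate for this gene, with log2 fold changes from HCT8 of -4.96 (SE 0.47, adjusted p = 1.06e-04) and -2.48 (SE 0.26, adjusted p = 3.74e-06). The first was -5.70 without HCT8/5-Fu replicate 2. The direct difference of CACNG4 between the resistant lines, 2.48, was not called in the main fit (adjusted p = 0.0649). It was called by DESeq2 (adjusted p = 0.00708), and by edgeR with all 9 libraries in 1 fit (adjusted p = 0.0173) or without HCT8/5-Fu replicate 1 (adjusted p = 0.0110). CACNG8 was called in neither comparison, but was called lower in HCT8/5-Fu without HCT8/5-Fu replicate 1 (-1.06 against -0.92, adjusted p = 0.0432).

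**Figure D2:**
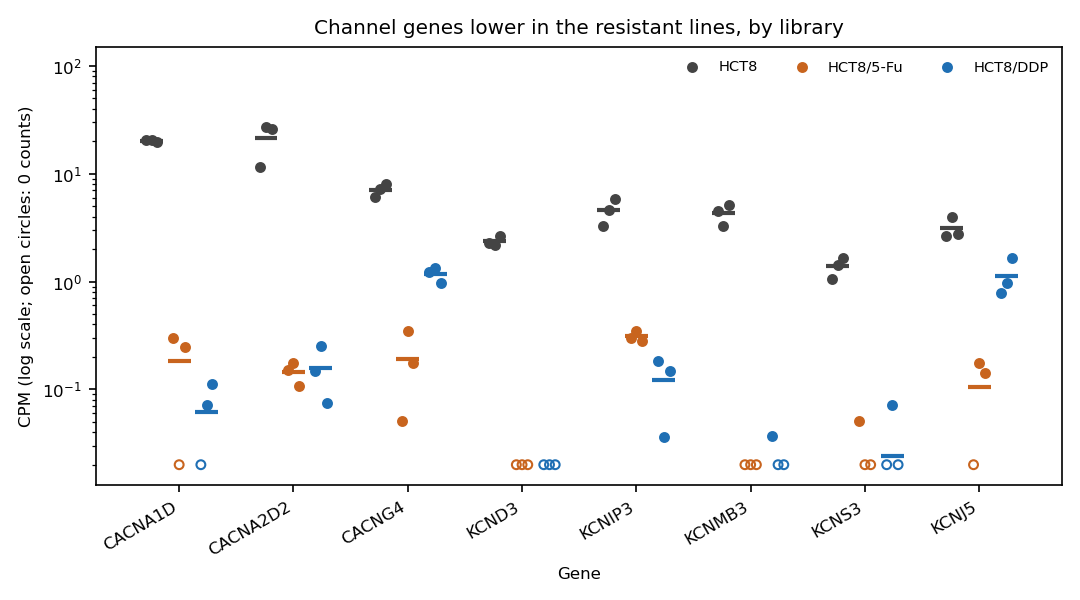
CPM of 8 channel genes that were lower in the resistant lines, on a log axis, 1 point per library, with bars at the mean of each line's 3 libraries and open circles for libraries with 0 counts. The HCT8 points of CACNA1D lie between 19.7 and 20.7 CPM, and no resistant library of it exceeds 0.302 CPM, while KCND3 has only open circles in both resistant lines.

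Voltage-gated potassium channel pores, counted with modifying subunits such as KCNS3 and KCNV1, made up the largest family, with 12 of 40 symbols passing the limit. Of these 12 genes, 7 were lower and 2 higher in HCT8/5-Fu, against 7 lower and 3 higher in HCT8/DDP. Over all genes tested, 18.2% were lower and 20.2% higher in HCT8/5-Fu, while HCT8/DDP had 25.5% lower and 27.1% higher. Of the 7 lower genes, KCND3 and KCNS3 had passed through HCT8 alone, and KCNS3 and KCNV1 are modifying subunits. KCNQ1, the pore that with KCNE3 forms the cAMP-activated basolateral potassium channel of colonic crypts, led HCT8 at 11.8 ± 0.161 FPKM. Its CPM was 51.6, 51.1 and 50.2 in HCT8, 17.2, 14.1 and 11.7 in HCT8/5-Fu, and HCT8/DDP had 38.1, 38.6 and 29.7. The 3 lines were separate, HCT8 highest and HCT8/5-Fu lowest, with log2 fold changes from HCT8 of -1.74 (SE 0.14, adjusted p = 3.75e-05) and -0.41 (SE 0.11, adjusted p = 0.00751). KCNE3, its partner, had 54.7, 36.1 and 39.1 CPM in HCT8, 77.4, 50.7 and 49.4 in HCT8/5-Fu, and HCT8/DDP had 53.3, 52.6 and 59.2. Its ranges overlapped, and the changes of 0.55 (adjusted p = 0.0415) and 0.47 (adjusted p = 0.00748) were both lost with library totals (adjusted p = 0.142 and 0.0537). In HCT8/5-Fu, KCNE3 was not called without HCT8/5-Fu replicate 1 (adjusted p = 0.0527), nor without HCT8 replicate 2, HCT8 replicate 3 or HCT8/5-Fu replicate 2. In FPKM, KCNQ1 and KCNE3 were alike in HCT8 (11.8 ± 0.161 and 11.8 ± 2.71), whereas in HCT8/5-Fu KCNQ1 stood at 3.33 ± 0.648 and KCNE3 at 16.1 ± 4.31 (SD, n = 3).

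KCND3, a pore of transient A-type currents, had 2.28, 2.20 and 2.65 CPM in HCT8 and 0 counts in all 6 resistant libraries. Against a floor of 3 counts over a line's 3 libraries, HCT8/5-Fu was at least 60.7-fold lower than HCT8, and HCT8/DDP at least 64.8-fold lower. KCNIP3 encodes a calcium-binding partner of KCND pores that is also known as the transcriptional repressor DREAM. It fell from 3.29, 4.65 and 5.89 CPM in HCT8 to 0.302, 0.350 and 0.284 in HCT8/5-Fu, and HCT8/DDP had 0.185, 0.0358 and 0.149. No library overlapped with HCT8, and the log2 fold changes were -3.76 (SE 0.39, adjusted p = 1.61e-04) and -5.07 (SE 0.49, adjusted p = 1.61e-06). KCND1, another A-type pore, and KCNIP2, another partner, were called in neither comparison and had 1.16 to 3.83 and 2.13 to 7.05 CPM over the 9 libraries. Without HCT8/5-Fu replicate 1, both were called lower in HCT8/5-Fu, KCND1 at -0.84 (adjusted p = 0.0458, against -0.36 with it) and KCNIP2 at -1.26 (adjusted p = 0.00132, against -0.63). In HCT8/DDP, KCNIP2 was called lower with library totals, with upper-quartile factors or without HCT8/DDP replicate 2 (adjusted p = 0.0198 to 0.0418).

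KCNS3 and KCNV1 encode subunits that conduct no current alone and modify KCNB pores. KCNS3 had 1.06, 1.42 and 1.66 CPM in HCT8, and 93 counts there against 1 in HCT8/5-Fu and 2 in HCT8/DDP. The ratios of HCT8 to the resistant lines were 107 (95% exact counting interval 18.8 to 4281) and 57.2 (15.4 to 479), intervals that cover counting error only. The single HCT8/5-Fu count lay in replicate 1 and both HCT8/DDP counts in replicate 2, so each line is at 0 without that library. KCNV1 fell less steeply, from 20.5, 17.8 and 23.0 CPM in HCT8 to 6.50, 5.68 and 5.96 in HCT8/5-Fu, and HCT8/DDP had 3.15, 4.66 and 3.36. The lines were separate, with log2 fold changes of -1.65 (SE 0.16, adjusted p = 1.21e-04) and -2.33 (SE 0.19, adjusted p = 2.74e-07). The direct difference of KCNV1 between the resistant lines, -0.70, was not called in the main fit (adjusted p = 0.133). It was called by DESeq2 (adjusted p = 0.0477) and by edgeR without HCT8/5-Fu replicate 1 (adjusted p = 0.0295).

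Among the other voltage-gated pores that fell, KCNC4 encodes a fast delayed rectifier. It stood at 40.7, 44.0 and 42.2 CPM in HCT8, 19.5, 22.0 and 22.2 in HCT8/5-Fu, and HCT8/DDP had 33.7, 30.3 and 22.0. The log2 fold changes were -0.88 (SE 0.14, adjusted p = 0.00163) and -0.45 (SE 0.14, adjusted p = 0.0150). Without HCT8/DDP replicate 3, its lowest library, the latter was -0.30 (adjusted p = 0.0601).

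KCNA2, a delayed rectifier of axons, and KCNH2, the hERG pore of cardiac repolarization, rose. KCNA2 had 2.48, 2.07 and 2.26 CPM in HCT8, 13.0, 12.6 and 11.1 in HCT8/5-Fu, and HCT8/DDP had 10.3, 13.9 and 14.4. Its log2 fold changes were 2.53 (SE 0.19, adjusted p = 2.70e-05) and 2.63 (SE 0.21, adjusted p = 2.49e-07). KCNH2 had 2.13, 1.51 and 1.19 CPM in HCT8, 10.3, 10.4 and 10.5 in HCT8/5-Fu, and HCT8/DDP had 8.96, 9.20 and 5.38. Those of this gene were 2.81 (SE 0.25, adjusted p = 7.09e-05) and 2.41 (SE 0.28, adjusted p = 1.07e-05). For both genes every resistant library exceeded every HCT8 library. KCNH3, a pore of the same family as KCNH2 known from brain, had 0.405, 0.603 and 0.683 CPM in HCT8, 0.302, 0.981 and 1.13 in HCT8/5-Fu, and HCT8/DDP had 2.92, 2.61 and 1.46. It was called in HCT8/DDP (2.14, SE 0.41, adjusted p = 6.71e-04) and not in HCT8/5-Fu (0.66, adjusted p = 0.384), where its libraries overlapped with HCT8. The direct difference between the resistant lines, 1.47, was not called (adjusted p = 0.159), but was without HCT8/5-Fu replicate 1 (1.07, adjusted p = 0.049).

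**Figure D3:**
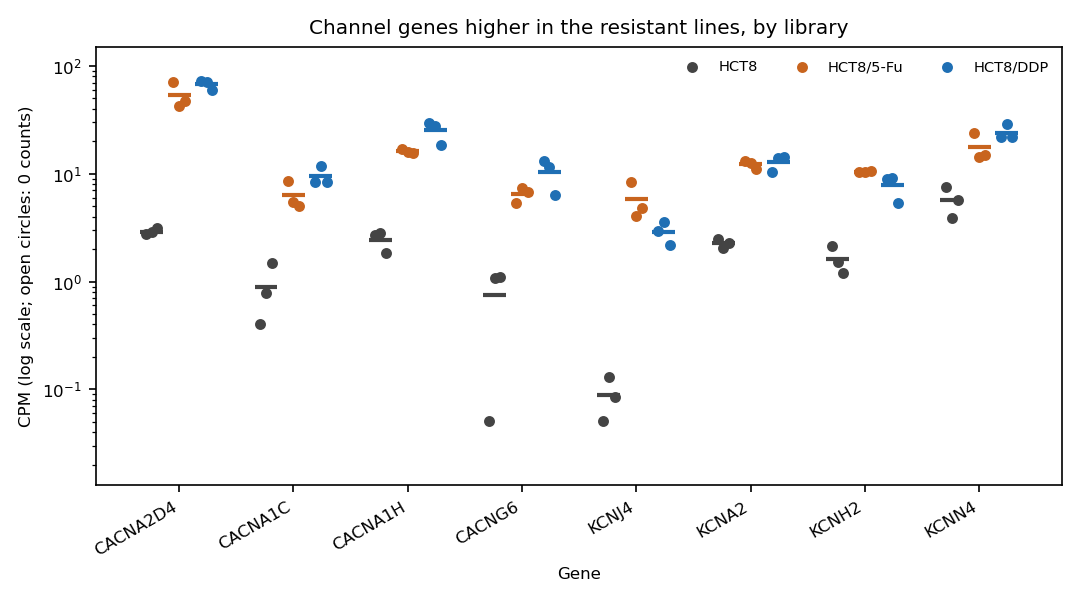
CPM of 8 channel genes that were higher in the resistant lines, on a log axis, 1 point per library, with bars at the mean of each line's 3 libraries. In each of the 8 genes the HCT8 points lie below all resistant points, from 0.0506 to 0.129 CPM for KCNJ4 to 3.88 to 7.54 CPM for KCNN4.

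Of the 6 inward rectifiers, KCNJ4 rose, KCNJ5 fell and 4 were not called in either comparison. KCNJ4, a strong inward rectifier known from heart and brain, had 0.0506, 0.129 and 0.0853 CPM in HCT8 (6 counts in all), 8.36, 4.10 and 4.86 in HCT8/5-Fu, and HCT8/DDP had 2.96, 3.55 and 2.17. HCT8/5-Fu libraries were all above HCT8/DDP libraries and both far above HCT8, with log2 fold changes of 5.99 (SE 0.48, adjusted p = 3.54e-05) and 5.04 (SE 0.50, adjusted p = 2.05e-06). The direct difference of KCNJ4 between the resistant lines, -0.97, was not called by edgeR (adjusted p = 0.128), but was by DESeq2 (adjusted p = 0.0343). KCNJ5, a G-protein-gated rectifier, had 2.63, 4.01 and 2.77 CPM in HCT8, 0, 0.175 and 0.142 in HCT8/5-Fu, and HCT8/DDP had 0.777, 0.967 and 1.64. The lines were separate, with log2 fold changes of -4.59 (SE 0.61, adjusted p = 5.94e-04) and -1.36 (SE 0.37, adjusted p = 0.00711). The direct difference of KCNJ5 between the resistant lines, 3.23, was not called in the main fit (adjusted p = 0.0571). It was called by DESeq2 (adjusted p = 0.00213), and by edgeR with all 9 libraries in 1 fit (adjusted p = 0.019) or without HCT8/5-Fu replicate 1 (adjusted p = 0.00480). KCNJ8, a pore of ATP-sensitive channels and the highest inward rectifier by FPKM, had 7.80, 6.16 and 10.0 CPM in HCT8, 12.2, 9.88 and 11.5 in HCT8/5-Fu, and HCT8/DDP had 6.48, 9.10 and 12.5. It was called in neither comparison (0.59, adjusted p = 0.0553, and 0.35, adjusted p = 0.259). The first lay near the limit and was called without HCT8/5-Fu replicate 1 (adjusted p = 0.0427) or HCT8 replicate 3 (adjusted p = 0.0362). It was also called by DESeq2 (adjusted p = 0.0422) and with the replicate block (adjusted p = 0.0495). KCNJ11, the other ATP-sensitive pore, KCNJ14 and KCNJ12 were called in neither, though KCNJ11 was called lower in HCT8/5-Fu with library totals (-0.62, adjusted p = 0.0499) or upper-quartile factors (-0.60, adjusted p = 0.0498), and KCNJ12 has a near-identical copy in the genome, so its counts are uncertain.

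Leak channels of the KCNK family, which hold the resting potential, included some of the highest channel genes by FPKM, and none of the 3 was called lower. KCNK1 stood at 10.05 ± 0.526, 11.8 ± 0.498 and 11.2 ± 0.977 FPKM in HCT8, HCT8/5-Fu and HCT8/DDP (SD, n = 3), third-highest in HCT8 and second-highest in each resistant line. Its log2 fold changes were 0.35 (adjusted p = 0.0539) and 0.28 (adjusted p = 0.0339). The first was called without HCT8/5-Fu replicate 1 (adjusted p = 0.00503), and the second was lost when replicate 2 or 3 of HCT8, or replicate 1 or 2 of HCT8/DDP, was left out (adjusted p = 0.0692 to 0.130), and with library totals or upper-quartile factors (adjusted p = 0.217 and 0.124). KCNK6 had 16.0, 11.4 and 12.6 CPM in HCT8, 35.0, 19.4 and 24.3 in HCT8/5-Fu, and HCT8/DDP had 21.6, 21.8 and 26.7. All resistant libraries were above HCT8, with log2 fold changes of 1.07 (SE 0.20, adjusted p = 0.00350) and 0.93 (SE 0.15, adjusted p = 1.63e-04). KCNK5, an acid-sensitive leak channel, was called in neither comparison and had 12.6 to 22.0 CPM.

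KCNN4, the intermediate-conductance calcium-activated channel that also serves chloride secretion in colon, had 7.54, 3.88 and 5.67 CPM in HCT8, 23.9, 14.2 and 15.0 in HCT8/5-Fu, and HCT8/DDP had 21.8, 28.8 and 21.8. Every resistant library was above every HCT8 library, with log2 fold changes of 1.73 (SE 0.26, adjusted p = 0.00106) and 2.21 (SE 0.20, adjusted p = 1.14e-06). KCNN1, a small-conductance channel, was called in neither. KCNMB3, a BK subunit, had 4.56, 3.27 and 5.16 CPM in HCT8, 0 counts in HCT8/5-Fu and 1 count in HCT8/DDP. HCT8/5-Fu was at least 110-fold lower than HCT8, and the ratio of HCT8 to HCT8/DDP was 353 (95% exact counting interval 62.9 to 13996), with that count in HCT8/DDP replicate 1. KCNMB4, the BK subunit best known from neurons, had 7.24, 6.94 and 6.23 CPM in HCT8, 5.84, 6.76 and 7.48 in HCT8/5-Fu, and HCT8/DDP had 14.3, 14.8 and 13.6. It rose in HCT8/DDP (1.18, SE 0.15, adjusted p = 2.22e-05), where no library overlapped with HCT8, and was not called in HCT8/5-Fu (0.09, adjusted p = 0.743), a difference whose sign turned with the scaling (-0.02 with library totals).

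The accessory subunits KCNAB2 and KCNAB3 are cytoplasmic partners of KCNA pores. KCNAB2 had 39.4, 27.4 and 32.5 CPM in HCT8, 80.1, 49.6 and 61.5 in HCT8/5-Fu, and HCT8/DDP had 60.8, 58.9 and 49.6. The resistant libraries all exceeded HCT8, with log2 fold changes of 1.04 (SE 0.17, adjusted p = 0.00161) and 0.89 (SE 0.12, adjusted p = 4.27e-05). NPHP4, which overlaps KCNAB2 on the opposite strand, had log2 fold changes of 0.51 (adjusted p = 0.0247) and 0.54 (adjusted p = 0.00345), and whether reads were counted by strand is not given in the sources used here. KCNAB3 was called in neither comparison (-0.97, adjusted p = 0.154, and -0.54, adjusted p = 0.221). It was called lower in HCT8/5-Fu without HCT8/5-Fu replicate 1 (-1.60, adjusted p = 0.0102) and in HCT8/DDP without HCT8/DDP replicate 1 (-1.01, adjusted p = 0.0376).

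**Figure D4:**
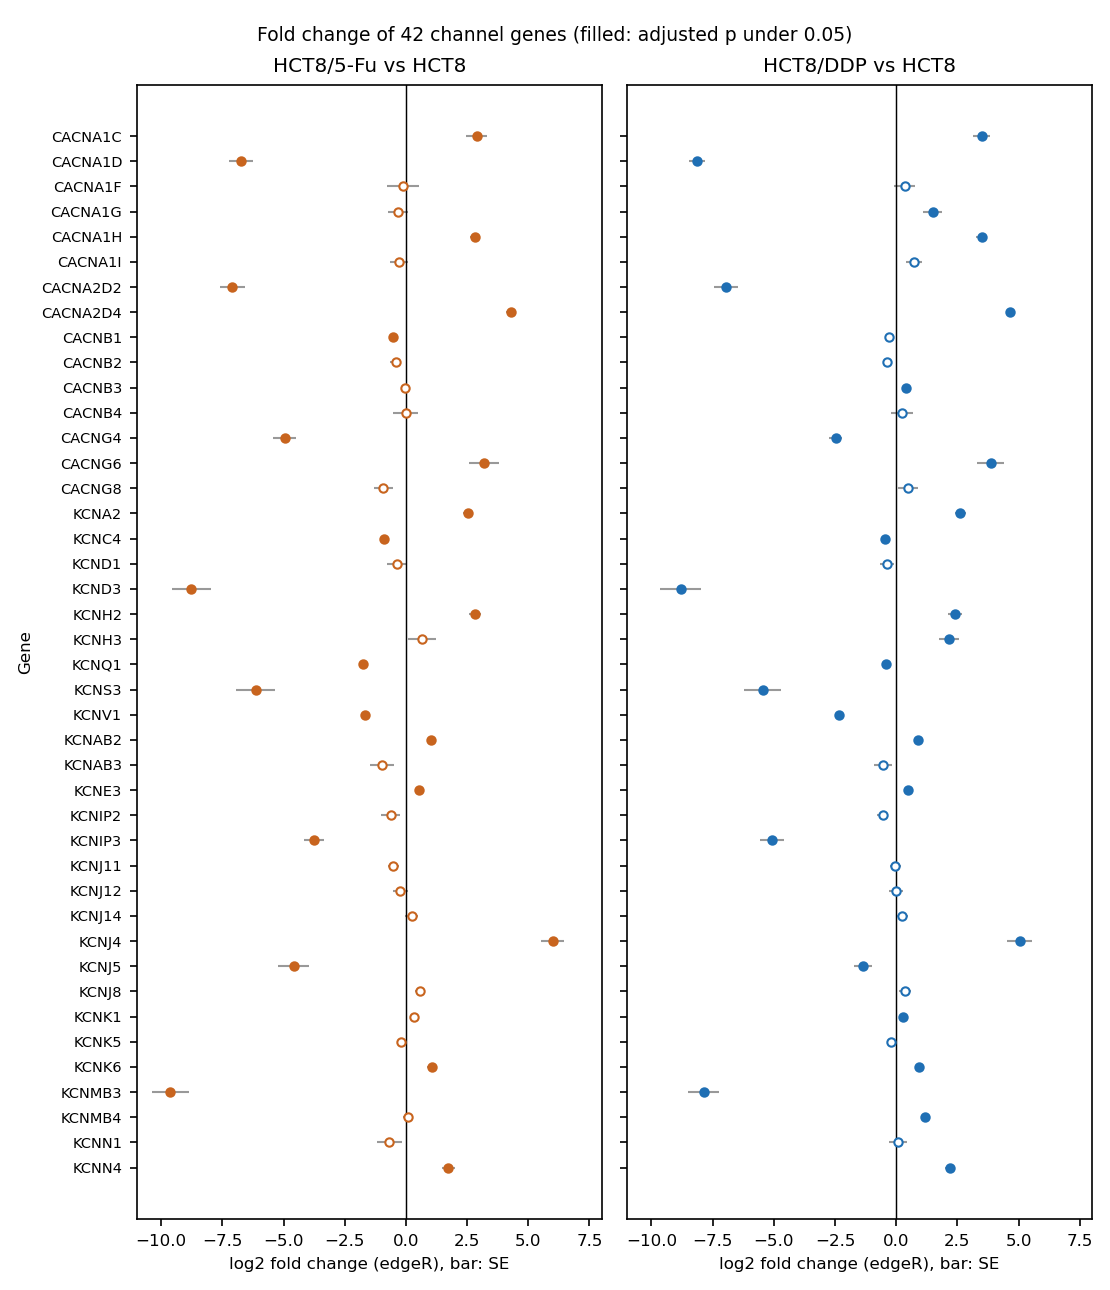
Log2 fold change of 42 of the 45 channel genes against HCT8 from edgeR, for HCT8/5-Fu in the left panel and HCT8/DDP in the right panel, with bars of 1 SE and filled points for an adjusted p under 0.05. Fitted values of KCND3, KCNMB3 and KCNS3 rest on 0 to 2 counts in the resistant line and depend on the prior count, and the filled points reach 5.99 (KCNJ4, HCT8/5-Fu) on the higher side.

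**Figure D5:**
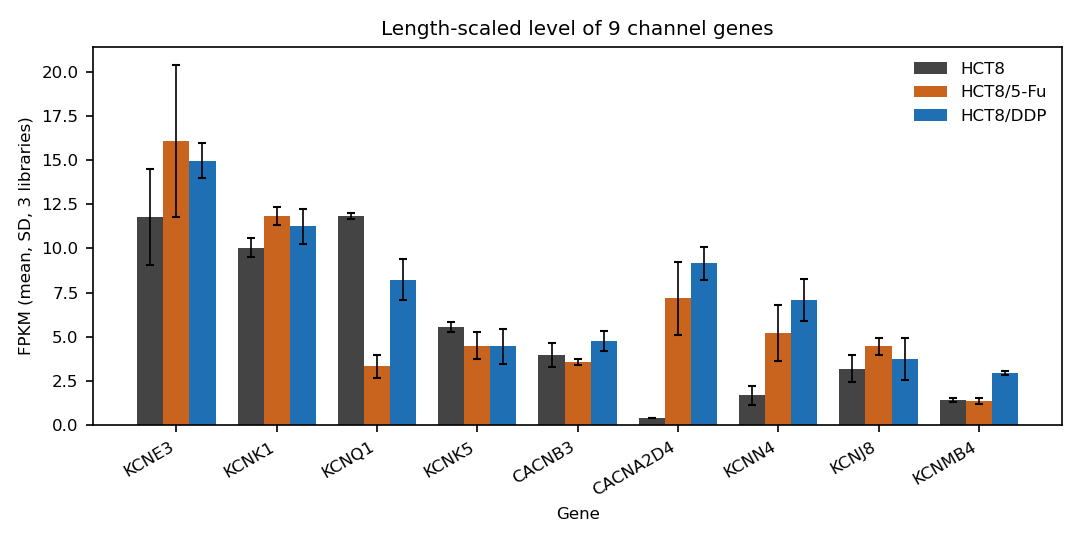
FPKM of 9 channel genes, as the mean of 3 libraries with SD bars, in HCT8, HCT8/5-Fu and HCT8/DDP. KCNQ1 stands at 11.8, 3.33 and 8.23 FPKM and CACNA2D4 reaches 7.18 and 9.16 FPKM in the resistant lines, while KCNK1 stays between 10.05 and 11.8 FPKM.

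By FPKM, the channel genes that led each line differed in part. In HCT8 they were KCNQ1, KCNE3, KCNK1 and KCNK5 (11.8, 11.8, 10.05 and 5.56 FPKM). In HCT8/5-Fu they were KCNE3, KCNK1, CACNA2D4 and KCNN4 (16.1 ± 4.31, 11.8 ± 0.498, 7.18 ± 2.07 and 5.20 ± 1.58 FPKM). In HCT8/DDP they were KCNE3, KCNK1, CACNA2D4 and KCNQ1 (15.0 ± 0.984, 11.2 ± 0.977, 9.16 ± 0.931 and 8.23 ± 1.17 FPKM). KCNQ1 and KCNE3 in HCT8, and CACNA2D4 and KCNQ1 in HCT8/DDP, lay within 1 SD of each other, while KCNK1 and KCNK5 in HCT8 did not.

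Between the resistant lines, 39 of the 45 genes were tested, since the 6 that passed through HCT8 alone had too few counts, and 2 were called (5.13%, against 2.15% of 13012 genes), both higher in HCT8/DDP (1.45% of all genes) and 0 lower (0.699%). KCNQ1 was higher in HCT8/DDP than in HCT8/5-Fu by 1.32 on the log2 scale (SE 0.16, adjusted p = 0.0271), and KCNMB4 by 1.08 (SE 0.17, adjusted p = 0.0318), each in 3 of 3 libraries. Neither was called with HCT8/5-Fu replicate 2 or 3 or any HCT8/DDP library left out (0 calls among the 39 genes by edgeR, with 9 to 16 at an unadjusted p under 0.05), and the log2 differences then lay at 1.21 to 1.41 and 1.05 to 1.19. Without HCT8/5-Fu replicate 1, 15 of the 39 genes were called, KCNQ1 and KCNMB4 included (adjusted p = 8.36e-06 and 3.36e-04). Also called were CACNA1C, CACNA1F, CACNA1G, CACNA1H, CACNA1I, CACNA2D4, CACNB3, CACNG4, CACNG8, KCNH3, KCNJ5 and KCNN4, all higher in HCT8/DDP, and KCNV1, lower there. DESeq2 called 9. The number of channel genes called between the resistant lines thus depended on the libraries kept and on the method.

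Other genes of potassium and calcium transport were given by a list of 78 symbols, 77 of which were in the table. In HCT8/5-Fu, 13 of 54 tested were higher and 19 lower (median log2 fold change -0.05), and in HCT8/DDP 17 of 56 were higher and 18 lower (0.06), beside medians of -0.00 and -0.01 over all genes. Over all genes tested 20.2% were higher and 18.2% lower in HCT8/5-Fu, while HCT8/DDP had 27.1% higher and 25.5% lower. Of store-operated entry and intracellular release, 4 of 16 were higher and 4 lower in HCT8/5-Fu, and 5 of 16 higher and 6 lower in HCT8/DDP. ITPR2 and ITPR3, both inositol trisphosphate receptors, moved in opposite directions, from 272 ± 1.83 to 101 ± 39.8 and 86.7 ± 4.07 CPM (log2 fold changes -1.35 and -1.53, adjusted p = 0.00111 and 1.40e-08) and from 338 ± 33.4 to 607 ± 29.1 and 743 ± 11.4 CPM (0.96 and 1.26, adjusted p = 0.00101 and 2.14e-07). ORAI3, a pore of store-operated entry, rose from 4.97 to 10.1 and 11.4 CPM (1.12 and 1.32, adjusted p = 0.00213 and 1.60e-04). Among pumps and exchangers, ATP2C2, a Golgi calcium pump that in mammary cells also activates store-independent calcium entry, fell from 35.9 ± 4.10 to 0.870 ± 0.469 and 1.58 ± 0.925 CPM (-5.32 and -4.37, adjusted p = 3.89e-06 and 1.05e-06). SLC8A1, a sodium-calcium exchanger, fell from 7.99 to 1.03 and 1.93 CPM (-2.85 and -1.93, adjusted p = 1.41e-04 and 1.61e-05). TRPM4, a calcium-activated cation channel, fell from 38.6 to 11.3 and 13.9 CPM (-1.67 and -1.34, adjusted p = 1.61e-04 and 1.27e-05). ANO1, a calcium-activated chloride channel, rose from 4.03 ± 0.725 to 24.97 ± 9.72 and 43.1 ± 5.53 CPM (2.76 and 3.53, adjusted p = 5.01e-04 and 1.31e-09). These 7 genes were named after their values were seen.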

How the data were processed

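The authors removed rRNA from total RNA and treated it with RNase R, and the submitters' notes name HISAT2, DESeq2 and genome build mm9. Of the symbols matched to RefSeq GRCh38.p14, 18788 of 18792 overlap there, so the coordinates were read as GRCh38. Whether the mRNA table comes from RNase R-treated libraries, and how reads were counted, is not given in the sources used here. The authors deposited whole-number counts and FPKM per gene for the 9 libraries. The deposited FPKM equal the counts scaled by gene length and column sum and were used only to compare levels between genes. The circRNA, miRNA and lncRNA tables were not used here.

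CPM were taken on column sums. Each comparison used its 6 libraries in edgeR 4.0.16 (R 4.3.3): filterByExpr, TMM factors and the robust quasi-likelihood test, with Benjamini-Hochberg adjustment over all genes tested. The SE is the size of the log2 fold change divided by the square root of F. Scripts were tested on simulated data. Alternatives were DESeq2 1.42.0, library totals, upper-quartile factors, no filter, all 9 libraries in 1 fit, a replicate block and each library left out. A fit without replicate 1 of both HCT8 and HCT8/5-Fu was added after seeing the data. Full statistics were given for genes with an adjusted p under 0.05, a log2 fold change of at least 1 in size and CPM ranges that do not overlap (21 genes in each comparison with HCT8, 2 between the resistant lines), for the gene of highest FPKM in each family and, chosen after their values were seen, for other genes called. Counts cover all 45 channel genes, of which 3 are not reported singly here. The channel genes and the gene lists were chosen with earlier results of these data known.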

Additional observations from a re-analysis of the deposited data

Results flagged for a closer look

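Both resistant lines were compared with the same HCT8 libraries, and for 2 channel genes the change from HCT8 differed between them by the direct test of HCT8/DDP against HCT8/5-Fu. KCNQ1 differed by 1.32 on the log2 scale (1.315, edgeR adjusted p = 0.0271), with 29.7 to 38.6 CPM in HCT8/DDP and 11.7 to 17.2 in HCT8/5-Fu. KCNMB4 differed by 1.08 (1.076, edgeR adjusted p = 0.0318), with 13.6 to 14.8 CPM in HCT8/DDP and 5.84 to 7.48 in HCT8/5-Fu. Over the 12 alternative settings the adjusted p ranged from 1.17e-10 to 0.240 for KCNQ1 and from 5.73e-06 to 0.240 for KCNMB4, and the HCT8/DDP libraries were higher in 3 of 3 for both genes.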

How the results depend on the processing

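Against HCT8, the count of channel genes called stayed within 1.5 times the main count in every alternative run: 22 to 31 with 1 library left out in HCT8/5-Fu (main 25; 34 without replicate 1 of both HCT8 and HCT8/5-Fu) and 27 to 29 in HCT8/DDP (main 29). Between the resistant lines (main 2) it was 0 to 15 with 1 library left out, 9 by DESeq2 and 5 where all 9 libraries shared 1 fit. Over all genes, leave-one-out counts were 3237 to 7518 in HCT8/5-Fu (main 5087; 3237 without HCT8 replicate 3, 3249 without HCT8 replicate 2, 9778 without both replicates 1), 5825 to 8050 in HCT8/DDP (main 7033) and 0 to 4000 between the resistant lines (main 280), where DESeq2 called 1177 and the fit of all 9 libraries 634. The 0 to 4000 range has 4000 without HCT8/5-Fu replicate 1 and 0 without any other library. With library totals the median of all genes moved to -0.11 and -0.13, and 2032 of 4914 calls in HCT8/5-Fu (main 2673 of 5087) and 2756 of 7172 in HCT8/DDP (main 3618 of 7033) were higher. The sign of differences that were not called turned for CACNB3 in HCT8/5-Fu (-0.12 to 0.061 with 1 library left out, positive without HCT8 replicate 1, and 0.11 without both replicates 1), for KCNMB4 there (-0.020 with library totals, -0.00062 with upper-quartile factors, -0.017 to 0.23 with 1 library left out, negative without HCT8/5-Fu replicate 3, and 0.25 without both replicates 1) and for KCNE3 between the resistant lines (-0.18 to 0.077 with 1 library left out, positive without HCT8/5-Fu replicate 1). Over the 45 channel genes, 3 comparisons and all alternatives, 1438 values kept direction and call, 49 lost the call, 54 gained it, and 52 that were called under neither setting turned sign. The cause was not tested.

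Replicate numbers were not taken to pair the libraries, since in none of the 3 comparisons did all same-numbered deviations correlate above 0.1 (lowest -0.266). The replicate block gave 24 and 28 channel genes called against HCT8 and 0 between the resistant lines (14 of 39 at an unadjusted p under 0.05 by edgeR), and 0 over all genes there.

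Depth limits genes near 0: a floor of 3 counts per library is 0.105 to 0.152 CPM, and larger fold sizes of genes at 0 to 2 counts are bounds or wide intervals.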

Other observations

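Some of the channel genes that changed lie near each other. CACNA2D4 and CACNA1C, both higher in the resistant lines, are 52.1 kb apart on chromosome 12 (GRCh38, CACNA2D4 from 1791963 to 1918666 and CACNA1C from 1970786 to 2697950). DCP1B, which overlaps CACNA1C on the opposite strand, was not called in either comparison with HCT8 (26.2, 21.9 and 25.5 CPM in HCT8, HCT8/5-Fu and HCT8/DDP). CACNG6 lies 2.07 kb from CACNG8 on chromosome 19, and CACNG6 rose in both comparisons while CACNG8 was called in neither with all libraries. KCNC4, KCNA2 and KCND3 follow each other on chromosome 1 with gaps of 236.7 and 1139 kb, of which KCNA2 rose and KCNC4 and KCND3 fell. PIK3CA, which overlaps KCNMB3 on the opposite strand, was not called (45.8, 54.4 and 50.5 CPM), nor were CHDH and DCP1A, which overlap CACNA1D. In all, 13 of the 45 channel genes overlap another gene of the table, 3 of them on the same strand.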
